A study of Mus musculus with 7 samples.

Results

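The osteoblast lineage transcription factors are 9 genes, Runx2, Sp7, Dlx3, Dlx5, Dlx6, Msx1, Msx2, Twist1 and Cbfb, chosen by name as the DNA-binding proteins and the binding partner that set the osteoblast programme. A probe set named 8 of the 9, out of 19938 genes named on the array. For each of the 8 it was the only probe set. Of these, Sp7, Dlx3, Dlx5, Dlx6 and Cbfb lay above the signal filter that 13938 genes passed, and Msx1, Msx2 and Twist1 lay below it. No probe set named Runx2 by symbol, Entrez identifier or accession, so its level was not analysed here.

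The tissue was osteocyte-enriched bone of male mice at 39 to 41 weeks of age. The long bones had been freed of marrow and taken through 4 rounds of collagenase digestion and EDTA extraction. The signal of 7 neutrophil markers still summed to 30535 to 31851 in controls and 26163 to 31132 in knockouts, so RNA of such cells remained. Control mice, 4 in number, were wildtype littermates, and the 3 knockout mice had Mbtps1 deleted by Dmp1-Cre. Mbtps1 encodes site-1 protease, a Golgi enzyme that cleaves membrane-bound transcription factors such as SREBP and ATF6. Dmp1-Cre recombines mainly in osteocytes and late osteoblasts. Which cells had recombined was not analysed here, and RNA of all cells left in the bone was measured together. In such bulk RNA, fewer cells of a type and less RNA per cell cannot be told apart. The labels do not say which mice shared a litter, and p-values measure the spread between these 7 arrays only.

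Runx2 is the runt-domain factor without which osteoblasts do not form, and Cbfb is its non-DNA-binding partner, which stabilizes it on DNA. Sp7, also called osterix, is a zinc finger factor that acts after Runx2 in the same path. The distal-less homeobox factors Dlx3, Dlx5 and Dlx6 activate osteoblast genes, Msx1 and Msx2 are homeobox factors of early skeletal and craniofacial precursors, and Twist1 is a basic helix-loop-helix factor that holds Runx2 back. Osteocytes are descended from osteoblasts and keep part of this programme while they take on their own genes, such as Sost and Mepe.

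DNA motifs known for the families of these factors can be seen in 3 promoters. The promoters are printed from RefSeq on GRCm38.p6, from 250 bases before to 50 bases after the start site. Motifs in capitals are the RUNX core (TGTGGT, or ACCACA on the other strand), the homeodomain core TAATTA (the same on both strands) and the GC box bound by Sp factors (GGGCGG, or CCGCCC on the other strand). Runx2 is shown as a lineage factor whose own window holds the motif of its family, as that of Msx2 also does, at chr17:44814578-44814877 on the minus strand. Mepe is shown as the only osteocyte marker whose window held both the RUNX and the homeodomain core, at chr5:104325079-104325378 on the plus strand. It was among the 8 osteocyte markers that were lower on every knockout array than on every control array. Ifitm5 is shown as an osteoblast gene that followed Sp7 across the arrays other than control 4, at chr7:140950194-140950493 on the minus strand.
Runx2: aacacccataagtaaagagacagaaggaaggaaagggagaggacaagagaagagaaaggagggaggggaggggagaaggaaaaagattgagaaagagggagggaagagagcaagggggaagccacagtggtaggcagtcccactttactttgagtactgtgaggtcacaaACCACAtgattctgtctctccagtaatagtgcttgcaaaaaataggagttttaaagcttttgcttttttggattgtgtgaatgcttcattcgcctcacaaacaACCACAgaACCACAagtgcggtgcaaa
Mepe: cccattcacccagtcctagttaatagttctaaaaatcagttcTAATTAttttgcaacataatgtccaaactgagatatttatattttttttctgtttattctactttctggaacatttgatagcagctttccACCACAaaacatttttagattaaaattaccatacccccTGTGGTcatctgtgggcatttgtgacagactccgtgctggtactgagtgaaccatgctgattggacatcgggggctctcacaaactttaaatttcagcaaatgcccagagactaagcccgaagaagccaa
Ifitm5: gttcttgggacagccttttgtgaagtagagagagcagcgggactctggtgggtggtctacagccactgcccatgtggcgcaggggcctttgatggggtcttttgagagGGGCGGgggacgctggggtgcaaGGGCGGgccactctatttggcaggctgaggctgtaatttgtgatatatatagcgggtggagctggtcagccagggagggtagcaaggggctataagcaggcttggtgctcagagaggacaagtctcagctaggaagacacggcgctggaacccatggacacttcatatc

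The Runx2 window held 3 RUNX cores, with first bases at -80, 24 and 32 counted with the start site as base 1 and the base before it as -1. In Mepe, 2 RUNX cores lay at -118 and -80 and 1 homeodomain core lay at -208. Ifitm5 had 2 GC boxes, at -142 and -119. Over the 32851 promoter windows of the same length, 16.8% held a RUNX core, 5.29% the homeodomain core and 35.7% a GC box. Of the lineage factors, 5 of 9 had a window, and in these the RUNX core was in Runx2 alone, the homeodomain core in Msx2 alone, and the GC box in the other 4 (Msx1, Msx2, Twist1 and Cbfb). Of 20 matrix and mineral genes, 16 had a window, and the RUNX core was in 4 of them (Bglap, Mmp13, Sparc and Spp1), the homeodomain core in 4 (Bglap3, Col10a1, Pth1r and Spp1) and the GC box in 6 (Alpl, Col1a2, Ifitm5, Phospho1, Pth1r and Vdr). Some of these genes had more than 1 window, 22 in all. Of 11 osteocyte markers 10 had a window, and the RUNX core was in 3 of them (Dkk1, Dmp1 and Mepe). The homeodomain core was in Mepe alone, and the GC box in 3 (Cd44, Pdpn and Ptprz1). A match describes letters only, and no binding was measured.

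The arrays differed in ways that bear on every value here. The targeted gene was not clearly lower. Mbtps1 read 162, 149, 131 and 152 in controls 1 to 4 and 115, 107 and 154 in knockouts 1 to 3, so knockout 3 lay among the controls (log2 fold change -0.23, SE 0.14, limma adjusted p = 0.807). Control 4 stood apart from the other arrays, at the end of the first principal component and with the lowest mean correlation with the rest (0.918). No gene of the 13938 (0%) passed an adjusted p of 0.05 in limma. At an unadjusted p under 0.05, 378 genes (2.71%) were lower and 526 (3.77%) higher in knockout bone, and the median log2 fold change was 0.07. Results are therefore given with and without control 4.

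None of the 5 measured lineage factors passed the adjusted threshold. Sp7 and Dlx5, 2 of the 5, were lower in knockout bone at an unadjusted p under 0.05, where 2.71% of all genes were, and 0 of 5 were higher. The 5 log2 fold changes had a median of -0.39, with 4 below 0 and Cbfb at 0.00. In none of the 5 did the groups separate, whereas 2.76% of all genes had every knockout below every control and 5.22% had every knockout above. Without control 4 the median was -0.15, and 1 of 5, Sp7, was lower at an unadjusted p under 0.05, beside 3.52% of all genes lower and 9.41% higher. The count of lower factors was 0 without knockout 1 or without knockout 3, 1 without control 1 or without knockout 2, and 3 without control 2, when Dlx3 was added.

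**Figure D1:**
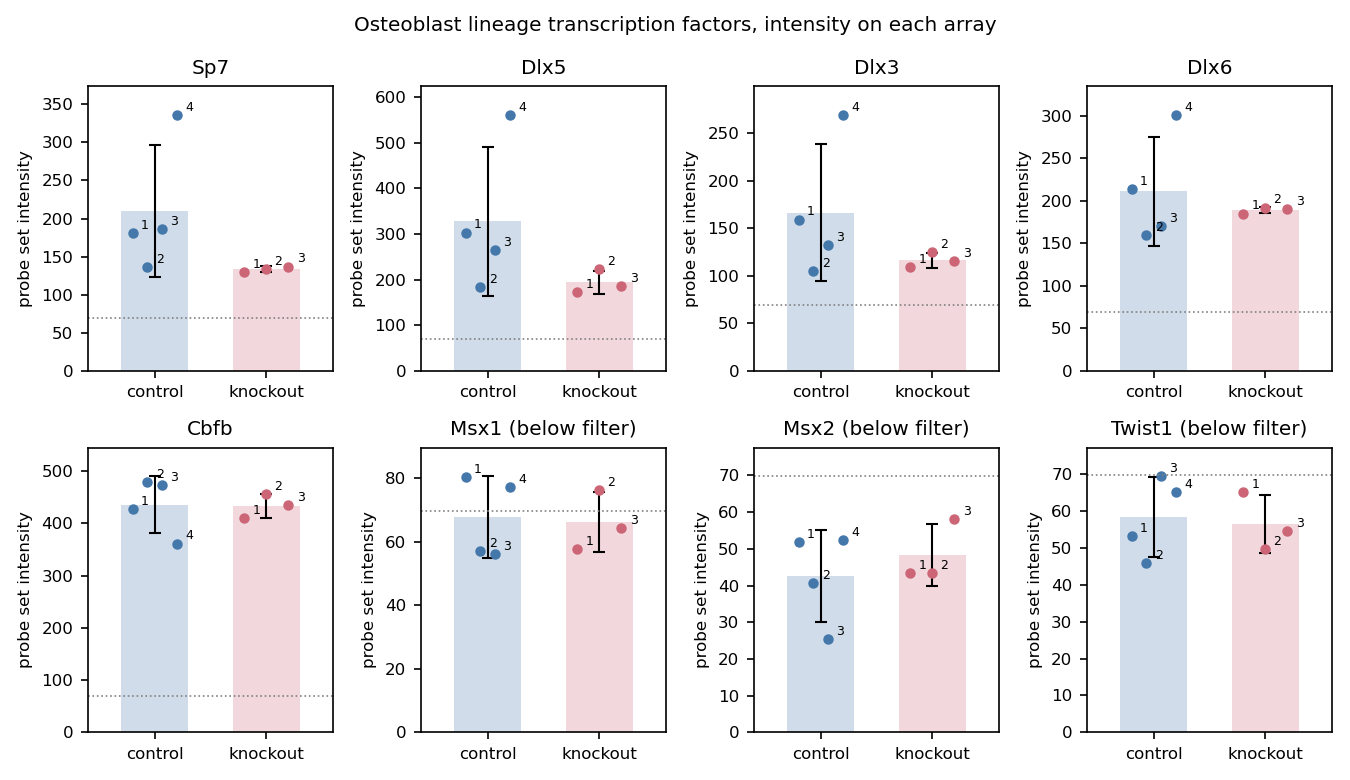
Probe set intensity (linear scale, from 0) of the 8 lineage factors that a probe set names, on the 4 control and 3 knockout arrays. Bars are group means, error bars are SD, points are arrays with their replicate number, and the dotted line is the signal filter at an intensity of 69.7. Control 4 is the highest array for Sp7, Dlx5, Dlx3 and Dlx6 and the lowest for Cbfb, and knockout arrays overlap the controls in every panel.

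Sp7, the zinc finger factor of osteoblast commitment, read 181, 136, 186 and 336 in controls 1 to 4 and 130, 134 and 137 in knockouts 1 to 3. The knockouts lay close together at the bottom of the range, and the groups overlapped only through control 2, which lay under knockout 3. Control 4 was far above every other array. Means were 210 ± 87.1 (SD, n = 4) in controls and 134 ± 3.79 (SD, n = 3) in knockouts. The log2 fold change was -0.52 (SE 0.22), which did not pass the test over all genes (limma adjusted p = 0.755). Without control 4 the control mean was 168 ± 27.4 (SD, n = 3) and the log2 fold change was -0.29 (SE 0.13, limma adjusted p = 0.355). On the log2 scale the SD was 0.51 among the 4 controls and 0.04 among the 3 knockouts.

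Cbfb, the partner subunit of Runx2, read 427, 479, 473 and 361 in controls 1 to 4 and 410, 455 and 434 in knockouts 1 to 3. Every knockout lay inside the control range, and control 4 was the lowest array, the reverse of its place for Sp7. The means were 435 ± 54.5 (SD, n = 4) and 433 ± 22.9 (SD, n = 3). The log2 fold change was 0.00 (SE 0.14, limma adjusted p = 0.998), and without control 4 it was -0.08 (SE 0.11, limma adjusted p = 0.797). Cbfb also partners Runx1 and Runx3 in blood cells, so bone RNA can hold Cbfb transcripts of several cell types.

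Dlx5, a homeobox activator of Runx2 and Sp7 in bone, read 303, 184, 264 and 561 in controls 1 to 4 and 173, 223 and 186 in knockouts 1 to 3. Control 2 lay among the knockouts, and the other 3 controls lay above all of them. The control mean was 328 ± 163 (SD, n = 4) and the knockout mean 194 ± 26.1 (SD, n = 3). At -0.61 (SE 0.27) its log2 fold change was the most negative of the 5, but it did not pass (limma adjusted p = 0.766). Without control 4 it was -0.32 (SE 0.16, limma adjusted p = 0.406).

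Dlx3, a homeobox factor of bone, tooth and skin, read 159, 105, 132 and 269 in controls 1 to 4 and 109, 125 and 115 in knockouts 1 to 3. The same array, control 2, was below all knockouts, and the other controls were above them. Means were 166 ± 72.1 (SD, n = 4) and 116 ± 8.08 (SD, n = 3), and the log2 fold change was -0.39 (SE 0.23, limma adjusted p = 0.804). Without control 4 the difference was -0.15 (SE 0.14, limma adjusted p = 0.701).

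Dlx6, which lies next to Dlx5 in the genome, read 214, 160, 170 and 301 in controls 1 to 4 and 185, 192 and 190 in knockouts 1 to 3. The knockouts sat in the middle, with 2 controls on either side. The log2 fold change was -0.11 (SE 0.18, limma adjusted p = 0.918) and turned to 0.06 (SE 0.12) without control 4. Its own direction in knockout bone is therefore not settled by these arrays.

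**Figure D2:**
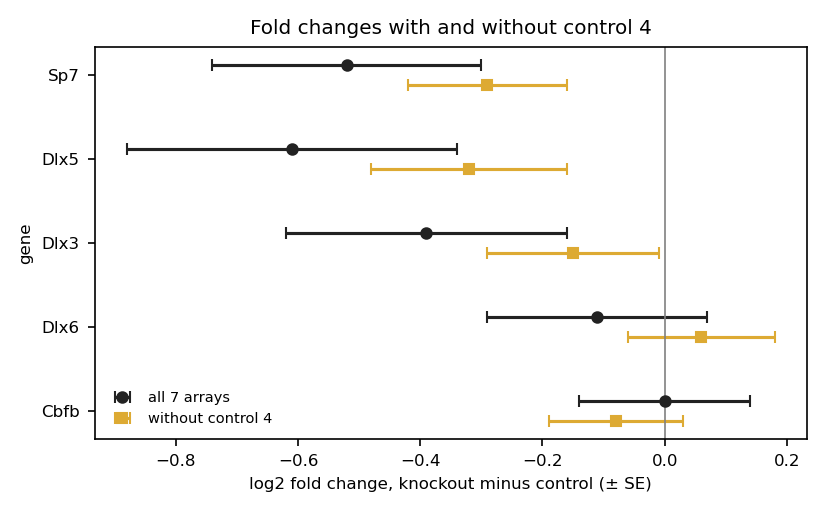
Log2 fold change (knockout minus control, intensity + 16) of the 5 measured lineage factors, with all 7 arrays (circles) and without control 4 (squares). Bars are the standard error from limma. Sp7, Dlx5 and Dlx3 lie nearer 0 without control 4, at -0.29, -0.32 and -0.15, and Dlx6 changes sign.

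The other 3 factors had probe sets below the filter, among the dimmest 30% of probe sets, where a change is understated on this scale. Msx1, a homeobox factor of craniofacial and tooth precursors, read 80.3, 57.1, 56.0 and 77.2 in controls 1 to 4 and 57.7, 76.3 and 64.3 in knockouts 1 to 3. Msx2, its close relative in skull sutures, read 51.9, 40.6, 25.5 and 52.4 in controls and 43.4, 43.3 and 58.1 in knockouts. Twist1, the repressor of Runx2, read 53.2, 45.9, 69.3 and 65.1 in controls and 65.0, 49.6 and 54.5 in knockouts. In all 3 the groups overlapped. In a limma fit without the filter their log2 fold changes were -0.02 (SE 0.15), 0.15 (SE 0.18) and -0.03 (SE 0.15), with limma adjusted p of 0.986, 0.896 and 0.976.

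Sp7, Dlx5 and Dlx3 varied together from array to array. Their Pearson correlations of log2 values over the 7 arrays were 0.98 for Sp7 with Dlx5, 0.97 for Sp7 with Dlx3 and 0.99 for Dlx3 with Dlx5. Without control 4 (n = 6) they were 0.90, 0.81 and 0.96. Dlx6 was less like Sp7 once control 4 was left out, with 0.85 over 7 arrays and 0.21 over 6, and the neighbours Dlx5 and Dlx6 gave 0.88 and 0.47. Cbfb ran the other way over 7 arrays (-0.69 with Sp7, -0.91 with Dlx6), and over 6 arrays its correlation with Sp7 was 0.19. Dlx5 and Dlx3 ranked 25 and 44 among all genes above the filter in likeness to Sp7 over 7 arrays, and 163 and 494 over 6. Osteocyte markers ranged from 0.102 (Fgf23) to 0.940 (Cd44) with Sp7 over 7 arrays, and from -0.628 (Fgf23) to 0.920 (Gja1) over 6. All these correlations share arrays, array-wide signal and the group difference, so the values describe likeness only.

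The 5 genes most like Sp7 over the 7 arrays were Wasl, Rasal2, Aldh6a1, Tcf7l2 and Tgfb3, with Pearson correlations of 0.995, 0.993, 0.992, 0.991 and 0.990. Without control 4 these stayed high, at 0.971, 0.959, 0.958, 0.949 and 0.971. Wasl is an actin regulator, Tcf7l2 a transcription factor of Wnt signalling and Tgfb3 a growth factor. Tgfb3 read 119, 88.7, 116 and 204 in controls 1 to 4 and 76.2, 82.4 and 78.0 in knockouts 1 to 3. All of its knockouts lay below all of its controls (log2 fold change -0.59, limma adjusted p = 0.659). Without control 4 the 5 most alike were Cryl1, Usp22, Ifitm5, Itpk1 and Srpx2, at 0.993, 0.988, 0.988, 0.987 and 0.979, but over all 7 arrays these reached only 0.038, -0.237, 0.442, -0.152 and 0.532. The 2 sets of 5 shared no gene. Ifitm5, a membrane protein of mineralizing osteoblasts, read 194, 137, 213 and 158 in controls and 132, 143 and 136 in knockouts, and its control 4 was not high.

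Marker genes of the cell types in the bone differed between the same arrays. The summed signal of the 11 osteocyte markers was 5631 to 12951 in controls, highest in control 4, and 3501 to 4499 in knockouts. This list was chosen with earlier results of these data known, so its lower signal in knockouts is not an independent result. Of the 11 markers 8 (Dmp1, Mepe, Phex, Sost, Ptprz1, Irx5, Dkk1 and Gja1) were lower in knockouts at an unadjusted p under 0.05, beside 2.71% of all genes. In 8 every knockout lay below every control, beside 2.76% of all genes. The other 3, Cd44, Pdpn and Fgf23, had log2 fold changes of -0.23, -0.08 and 0.25. Pdpn (SE 0.24) was thus near 0, and it was at 0.18 without control 4. The median log2 fold change of the 11 markers was -1.15. Without control 4 it was -0.86, with 8 markers lower and 1 higher, beside 3.52% and 9.41% of all genes. The higher marker was Fgf23, at 0.34, with every knockout above the other controls. Mepe, an osteocyte matrix protein, read 1187, 1086, 909 and 2753 in controls 1 to 4 and 368, 705 and 528 in knockouts 1 to 3 (log2 fold change -1.35, limma adjusted p = 0.559).

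Control 4 was also the lowest array for erythroid and B cell markers, though not for neutrophil markers, whose lowest sum was in a knockout. The sum over the 5 measured of 7 erythroid markers was 3494 in control 4, 7623 at most in controls and 6540 to 7175 in knockouts. For 6 B cell markers it was 1460 in control 4, 3289 at most in controls and 3025 to 3189 in knockouts. Of these 6, 2 were higher in knockouts at an unadjusted p under 0.05, beside 3.77% of all genes. Relative to the control mean, control 4 was at 0.71 for Sp7, 0.86 for Dlx5 and 0.74 for the osteocyte marker mean on the log2 scale, and at -0.73 and -0.66 for the erythroid and B cell means. The part of cell makeup in the values of Sp7, Dlx5 and Dlx3 was not tested.

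**Figure D3:**
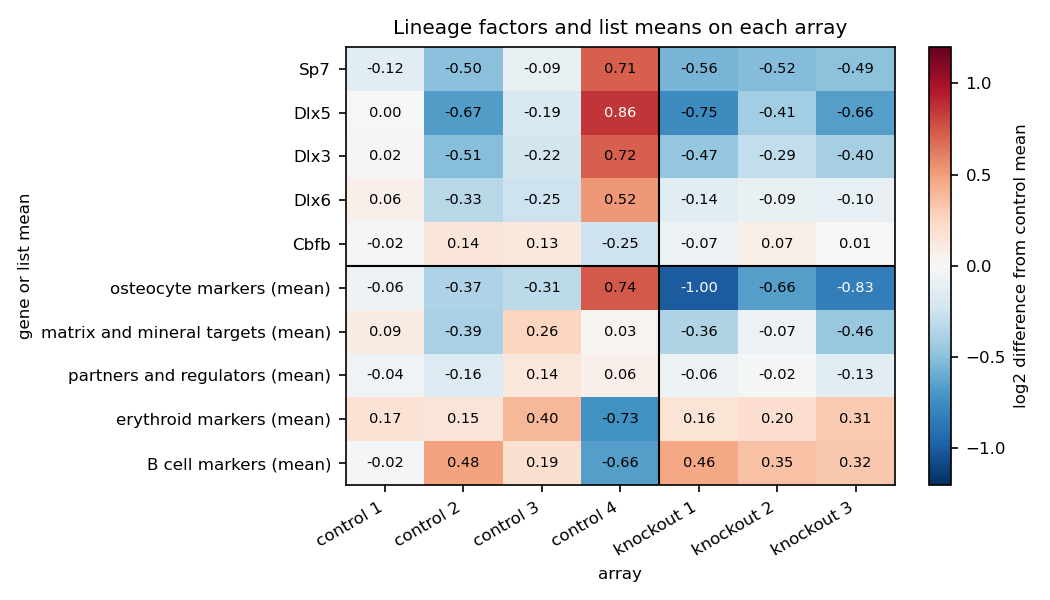
Log2 difference of each array from the mean of the 4 controls, for the 5 measured lineage factors (top rows) and for the mean of 5 gene lists (lower rows). Control 4 is high for Sp7, Dlx5, Dlx3, Dlx6 and osteocyte markers and low for erythroid and B cell markers, and control 2 is at -0.50 for Sp7, near the knockouts (-0.56, -0.52 and -0.49).

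The markers of 7 other cell types were read in the same way. Calls cover markers above the filter, whereas sums take in every marker with a probe set. The sums therefore cover 10 chondrocyte, 6 adipocyte and 8 osteoclast markers. At an unadjusted p under 0.05, 2.71% of all genes were lower and 3.77% higher (3.52% and 9.41% without control 4). Of 7 periosteal and fibroblast markers 4 were lower at an unadjusted p under 0.05, with a summed signal of 2185 to 3613 in controls and 1560 to 2119 in knockouts (median log2 fold change -0.35). Endothelial markers had 2 of 5 lower, with sums of 1079 to 1317 and 953 to 1017. Among 6 chondrocyte markers 0 were lower and 0 higher (sums 1024 to 1362 and 1249 to 1588), and among 6 muscle markers 0 and 0 (665 to 875 and 711 to 766). Adipocyte markers had 1 of 5 lower (1508 to 2695 and 1637 to 1892), osteoclast markers 1 of 6 higher (4290 to 6505 and 4296 to 5426) and neutrophil markers 2 of 7 lower (30535 to 31851 and 26163 to 31132). Without control 4, 3 adipocyte markers and 1 neutrophil marker were lower, and 1 chondrocyte and 1 muscle marker were higher. The part of these cells in the lineage factors' values was not tested.

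Family relatives gave no lower call. Of 12 relatives 6 were measured, 0 were lower and 0 higher at an unadjusted p under 0.05, and the median log2 fold change was 0.09, near the 0.07 of all genes. Without control 4 the median was 0.09 and 1 of 6 was higher, beside 9.41% of all genes. Msx3, a homeobox relative of Msx1, read 95.7, 79.0, 76.9 and 98.8 in controls 1 to 4 and 107, 101 and 118 in knockouts 1 to 3. Each of its knockouts was above each control (log2 fold change 0.27, limma adjusted p = 0.780). Runx3, a runt-domain factor of lymphocytes and cartilage, read 158, 120, 173 and 103 in controls and 195, 152 and 163 in knockouts, with overlap and a log2 fold change of 0.29 (limma adjusted p = 0.804). Runx1, the runt-domain factor of blood stem cells, and Dlx4 each had a log2 fold change of 0.09.

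Partners and regulators of these factors were mostly near 0. Of 37 genes 34 were named by a probe set and 30 measured. At an unadjusted p under 0.05, 3 of 30 were lower and 0 higher, beside 2.71% and 3.77% of all genes. The median log2 fold change was -0.06. Prrx1, a homeobox factor of limb mesenchyme, read 183, 136, 240 and 238 in controls 1 to 4 and 116, 137 and 138 in knockouts 1 to 3. Here too the overlap came through control 2 alone (log2 fold change -0.53, SE 0.18, limma adjusted p = 0.651). Zfp521, a zinc finger repressor of Runx2, read 188, 170, 233 and 205 in controls and 151, 155 and 164 in knockouts. Its groups did not overlap (log2 fold change -0.31, SE 0.13, limma adjusted p = 0.755). Hes1, a Notch target that binds Runx2, read 116, 83.2, 129 and 165 in controls and 97.5, 100 and 52.4 in knockouts (log2 fold change -0.49, SE 0.22, limma adjusted p = 0.765). Hdac4, a histone deacetylase that represses Runx2, read 198, 163, 183 and 168 in controls and 242, 197 and 207 in knockouts, with a log2 fold change of 0.25 (limma adjusted p = 0.789). Without control 4 Prrx1, Zfp521 and Hes1 were at -0.44, -0.29 and -0.36. In that fit 2 of 30 genes were lower at an unadjusted p under 0.05, beside 3.52% of all genes.

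Genes of bone matrix and mineral, many of them known targets of Runx2 or Sp7, lay mostly below 0. Of 20 genes 16 were measured, 13 of them with a log2 fold change below 0, and the median was -0.31 against 0.07 over all genes. At an unadjusted p under 0.05 4 of 16 were lower and 0 higher, beside 2.71% and 3.77% of all genes, and 0 passed the adjusted threshold. In none of the 16 did the groups separate. Bglap, Bglap2, Bglap3 and Spp1 were not named by a probe set of their own and were not analysed here. Without control 4 the median was -0.34 and 6 of 16 were lower, beside 3.52% of all genes.

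The 4 lower genes are receptors and secreted proteins. Vdr, the vitamin D receptor, read 249, 183, 326 and 414 in controls 1 to 4 and 114, 198 and 160 in knockouts 1 to 3 (log2 fold change -0.80, SE 0.24, limma adjusted p = 0.638). Tnfrsf11b, which encodes osteoprotegerin, the decoy receptor for RANKL, read 209, 177, 201 and 357 in controls and 115, 183 and 113 in knockouts (log2 fold change -0.70, SE 0.22, limma adjusted p = 0.638). In both genes knockout 2 lay above control 2, and the other 2 knockouts lay below every control. Fgfr2, a fibroblast growth factor receptor, read 182, 140, 247 and 182 in controls and 122, 141 and 133 in knockouts (log2 fold change -0.44, limma adjusted p = 0.681). Omd, a leucine-rich proteoglycan of bone, read 152, 127, 207 and 179 in controls and 106, 146 and 117 in knockouts (log2 fold change -0.38, limma adjusted p = 0.755). Without control 4 Vdr, Tnfrsf11b, Fgfr2 and Omd were at -0.62, -0.50, -0.44 and -0.34.

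The mean of the 16 matrix and mineral genes (the target mean) and Sp7 differed most in control 4. On the log2 scale the target mean was 0.09, -0.39, 0.26 and 0.03 from the control mean in controls 1 to 4 and -0.36, -0.07 and -0.46 in knockouts 1 to 3. Control 4, at 0.71 for Sp7, was near the control mean for the target mean, and control 3 was the highest array. Single genes differed there. Control 4 was the highest array for Vdr (414) and Tnfrsf11b (357) but the lowest for Col1a1 (729) and Phospho1 (79.7). The Pearson correlation of the target mean with Sp7 was 0.58 over 7 arrays and 0.86 over the 6 without control 4, as a description of likeness. Col1a1, the main collagen chain of bone and a target of both Runx2 and Sp7, had a mean of 1238 ± 598 (SD, n = 4) in controls and 1000 ± 167 (SD, n = 3) in knockouts, with a log2 fold change of -0.19 (SE 0.30, limma adjusted p = 0.916). Alpl, the alkaline phosphatase of mineralizing osteoblasts, was at -0.27 (SE 0.24, limma adjusted p = 0.845), and Ibsp, bone sialoprotein, at -0.27 (SE 0.21, limma adjusted p = 0.834). Col1a1 moved to -0.39 (SE 0.25, limma adjusted p = 0.547) without control 4, and Alpl and Ibsp to -0.26 and -0.22. These 3 are named as textbook targets, after their values were seen.

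**Figure D4:**
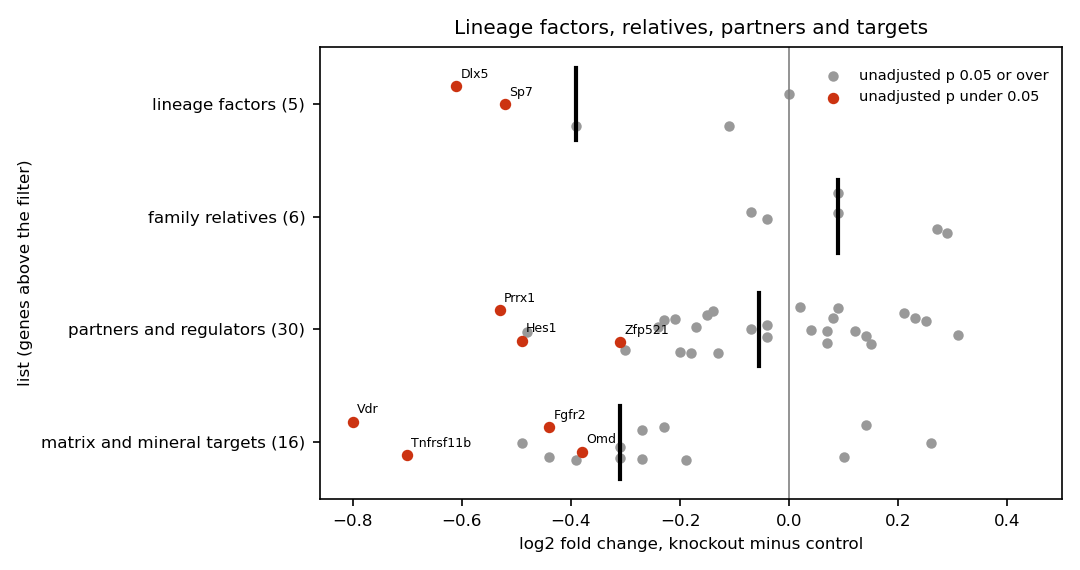
Log2 fold change (knockout minus control) of each measured gene among the lineage factors (5), family relatives (6), partners and regulators (30) and matrix and mineral targets (16). Red points had an unadjusted p under 0.05 in limma, none of which passed the adjusted threshold, and black bars are medians (-0.39, 0.09, -0.06 and -0.31).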

How the data were processed

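The authors deposited linear intensities, 1 value per probe set and array. The submitters' processing notes name PLIER and Affymetrix Expression Console 1.4; the settings, any normalization between arrays and the build were not given in the sources used here. Groups and replicate numbers came from the labels. Of the 35556 probe sets, 21789 named 1 gene in the platform annotation, 1621 several and 12146 none here. Each gene was read from the brightest probe set on average. Genes whose mean log2 value fell under the 30th percentile (6.42, an intensity of 69.7) were not tested, and 13938 genes remained.

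Values were taken as log2(intensity + 16), a scale that understates changes of dim genes. The groups were compared with limma 3.58.1 (R 4.3.3) using a mean-variance trend and Benjamini-Hochberg adjustment over all genes, threshold 0.05. The code was tested on simulated data. The number of arrays limits precision. Figures used matplotlib 3.10.9.

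The lineage factors and lists were chosen with earlier results of these data known. Named genes are the 9 factors, the 4 genes with the smallest p in each list of relatives, partners and targets, and the 5 most like Sp7 by Pearson correlation; the same for Runx2 could not be run. Other genes named were chosen after their values were seen. Alternatives were other offsets, filters, normalizations, variance models, a replicate block and leaving out each array. Promoters are RefSeq's, and no entry was used for Sp7, Dlx3, Dlx5 or Dlx6.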

Additional observations from a re-analysis of the deposited data

How the results depend on the processing

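Over 17 alternatives Sp7 (-0.69 to -0.29), Dlx5 (-0.83 to -0.32) and Dlx3 (-0.56 to -0.15) kept a log2 fold change below 0, and none of the 85 values of the 5 factors passed the adjusted threshold (limma adjusted p from 0.345 to 1). Dlx6 turned above 0 with array weights (0.01), the replicate block (0.06) and, of the fits without 1 array (-0.22 to 0.06), without control 4. Cbfb, at 0.00, went below 0 with quantile normalization (-0.01), median centring (-0.06), array weights (-0.05) and the replicate block (-0.08), and lay between -0.08 and 0.05 without 1 array. Of the 5 factors 2 were lower at an unadjusted p under 0.05, but 1 was with quantile normalization, array weights or the replicate block, and 0 to 3 were without 1 array: 0 without knockout 1 or knockout 3, 1 without control 1, control 4 or knockout 2, and 3 without control 2. Genes past the adjusted threshold numbered 0, but 1 with median centring, 5 with array weights, 62 with the replicate block and 0 to 5 without 1 array. Genes at an unadjusted p under 0.05 numbered 904, but 1867 with array weights, 1655 with the replicate block, and 325 (without knockout 1) to 1803 (without control 4) without 1 array. The cause was not tested. Same-numbered arrays' deviations from their group means correlated at 0.0685, 0.153 and -0.531, which gives no sign that replicate numbers pair the samples. Deviations within such small groups depend on each other, so these values cannot exclude pairing. In the replicate block control 4 stands alone. Counts of list genes without control 4, the genes most like Sp7 without it, the correlation of Sp7 with the target mean, and the fits of Msx1, Msx2 and Twist1 without it were added after seeing the data. Msx1, Msx2 and Twist1 are among the dimmest 30% of probe sets, which limits what can be said of them.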
